A study of Saccharomyces cerevisiae with 13 samples.

Results

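The two-ribosome library is the control of a disome-seq study of budding yeast, Saccharomyces cerevisiae. It holds the single-ribosome footprints of mRNAs that carried 2 ribosomes when the cells were lysed. Ribosomes were separated on a sucrose gradient without digestion, the peak of mRNAs with 2 ribosomes was collected, and RNase I then cut these into single ribosomes whose footprints were sequenced. It was set against the 2 replicates of monosome-seq, in which the whole extract was digested with RNase I without the gradient, so that mRNAs with any number of ribosomes gave footprints. By the labels, all 3 libraries came from BY4742, an α-type laboratory strain whose genotype is given as his3Δ1, leu2Δ0, lys2Δ0 and a deletion of URA3. The cells were grown in the rich medium YPD at 30 °C, and the lysis buffer held cycloheximide, which halts ribosomes. The series has 13 samples in all, and mRNA-seq with the same strain and medium by its labels (2 replicates) gave mRNA levels where they were needed. Footprints at all A-site positions of a gene were summed. The two-ribosome library had footprints in 4886 of the 5343 genes with a footprint in any of the 3 libraries. Of these, 3196 genes had a mean of at least 25 RPM, which is reads scaled to a library total of 1000000, over the 2 assays and are called measured here. There is 1 two-ribosome library, so that none of the differences below carries a test, and intervals and limits cover counting error only.

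An mRNA under translation carries several ribosomes along its coding sequence, and such a polysome sinks in a sucrose gradient the further the more ribosomes it holds. How many ribosomes an mRNA carries depends on how often a ribosome starts on it and on how long each one takes to read to the stop codon. Short coding sequences and mRNAs with slow initiation are therefore known to sit in the light fractions of a gradient, and long, well translated ones in the heavy fractions. A library of mRNAs with 2 ribosomes is a sample of the light fractions, while monosome-seq weights every mRNA by all the ribosomes on it. The comparison asks which genes the sample of 2 ribosomes holds in excess and which it lacks.

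The tables held 401686 footprints at 75954 A-site positions for the two-ribosome library, against 800994 and 606942 for replicates 1 and 2 of monosome-seq. In the two-ribosome library 1 footprint is 2.49 RPM. A count of 0 allows up to 3 counts, which is 7.47 RPM in the two-ribosome library and 2.13 RPM in both monosome replicates pooled. The control table holds footprints of 28 to 29 nt and the monosome table those of 20 to 30 nt.

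Marker genes of the strain went against the label of the two-ribosome library, and this stands before every result below. Yeast cells of the α mating type make α-factor, the α-agglutinin and the receptor for a-factor, and cells of the a type make a-factor and the receptor for α-factor. MF(ALPHA)1, the main α-factor gene, had 0 footprints in the two-ribosome library, against 1648 and 1189 in the monosome replicates, which puts it at least 269-fold lower. SAG1, the α-agglutinin, had 0 footprints, against 637 and 499. MF(ALPHA)2 had 0, against 295 and 313. STE3, the receptor for a-factor, had 1 footprint, against 448 and 358, a ratio 230 times lower with a 95% counting interval whose lower end is 41.2. AFB1, the fifth of the α-specific genes looked at, had 6, against 52 and 53. The α-specific genes were thus at or near 0 in the two-ribosome library and well counted in both monosome replicates.

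The a-specific genes showed the opposite. MFA2, one of the pair of genes for a-factor, had 73 footprints in the two-ribosome library, against 0 in each monosome replicate, at least 85.3-fold higher. AGA2, the a-agglutinin subunit, had 46, against 0 and 0, at least 53.7-fold higher. STE2, the α-factor receptor, had 47, against 1 and 0. MFA1, BAR1, STE6 and ASG7 had 13, 16, 9 and 6 footprints in the two-ribosome library, and at most 1 in either monosome replicate. All 7 a-specific genes thus had more footprints in the two-ribosome library, of which 3 were measured.

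The 2 a-factor genes are shown because their footprints are what contradicts the label most directly. The coding sequences are from the RefSeq annotation of the R64 genome, 5′ to 3′, MFA2 at chrXIV:352414-352530 and MFA1 at chrIV:1385176-1385286, both on the plus strand, with each codon that held a footprint in the A site in capitals.
MFA2: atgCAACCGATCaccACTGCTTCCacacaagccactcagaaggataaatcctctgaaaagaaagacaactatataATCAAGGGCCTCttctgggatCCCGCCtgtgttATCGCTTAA
MFA1: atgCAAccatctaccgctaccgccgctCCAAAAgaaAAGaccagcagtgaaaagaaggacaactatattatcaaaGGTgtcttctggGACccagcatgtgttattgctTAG
In MFA2, 15 of 39 codons held 70 footprints, with 3 more past the stop codon. In MFA1, 7 of 37 codons held 7 footprints, with 6 more past the stop codon. The footprints lay at many codons of both genes, not at a single one.

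Some auxotrophy genes did not follow the label either, LYS2 and MET17 in the two-ribosome library and URA3 in monosome-seq and mRNA-seq. LYS2, deleted in BY4742 by its genotype, had 62 footprints at 44 positions in the two-ribosome library, against 0 in each monosome replicate and 0 in both mRNA-seq replicates, at least 72.4-fold higher. MET17, which the label does not list as deleted, had 0 footprints in the two-ribosome library, against 514 and 341, at least 80.6-fold lower. URA3 had 0 in the two-ribosome library but 35 and 21 in the monosome replicates, and 138 and 181 reads in mRNA-seq, although the label lists it as deleted. LEU2 had no footprint in any of the 3 libraries. HIS3, of which his3Δ1 removes a part only, had 49, against 41 and 40. As background, an a-type strain with LYS2 and without MET17 exists in the same family of laboratory strains (BY4741). What the cells of the two-ribosome library were is not settled by these counts. The strain markers and the preparation differ together between the libraries, and their parts in what follows cannot be told apart. Every ratio below is a ratio between libraries.

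**Figure D1:**
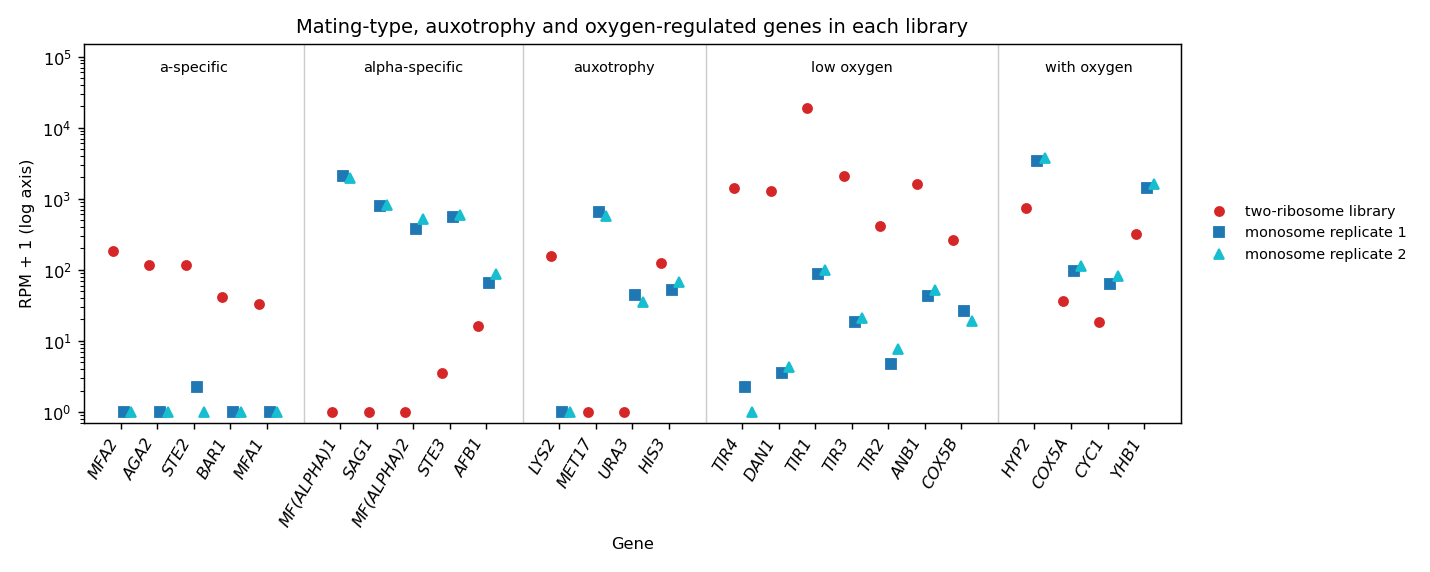
RPM + 1 on a log axis for mating-type, auxotrophy and oxygen-regulated genes, with 1 point for the two-ribosome library (red circle) and 1 for each monosome replicate (blue square, cyan triangle). MFA2 and LYS2 stand at 181.7 and 154.3 RPM in the two-ribosome library and at 0 in both monosome replicates, while MF(ALPHA)1, SAG1 and MET17 are at 0 in the two-ribosome library only.

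Levels of genes differed far more between the two-ribosome library and monosome-seq than between the monosome replicates. The log2 ratio of (RPM + 1) in the two-ribosome library over (mean RPM of both monosome replicates + 1) had an SD of 1.86 over the 3196 genes measured, against 0.33 for replicate 1 over replicate 2 of monosome-seq. Past 2-fold, 431 genes (13.5%) were above and 1440 (45.1%) below, 58.5% in either direction, against 1.38% between the monosome replicates. With each monosome replicate by itself, 387 genes were above and 1362 below with both. Of the 431 genes above, 154 had a monosome mean under 25 RPM and so were measured only through the two-ribosome library, where they were high. With the limit of 25 RPM set on monosome-seq alone, a choice made after seeing the data, 277 of 3399 genes (8.15%) were above and 1773 (52.2%) below. The median log2 ratio was −0.81, with quartiles of −1.85 and 0.24. The split between above and below depends on the scaling. With the median of all genes measured set to 0 it was 826 above and 823 below, and with TMM factors 845 above and 847 below. Levels are therefore read below against the −0.81 of all genes measured.

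The most counted genes held a larger part of the two-ribosome library than of monosome-seq. The 431 genes above 2-fold held 42.3% of the footprints of the two-ribosome library, against 10.2% of monosome footprints on average over the replicates. The 1440 genes below held 9.60%, against 40.1%. Both groups were called by this same ratio, so that the direction of these differences is fixed by the call. The 10 genes most counted in the two-ribosome library held 31.2% of it, and the 10 most counted in each monosome replicate held 18.1% of that replicate. Glycolytic enzymes among those of the two-ribosome library were TDH3, CDC19, FBA1, GPM1, PGK1, ENO2 and TDH1, and the others were CCW12, PDC1 and TIR1. TDH1, and CCW12 and TIR1, both for proteins of the cell wall, were not among the 10 most counted genes of either monosome replicate.

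**Figure D2:**
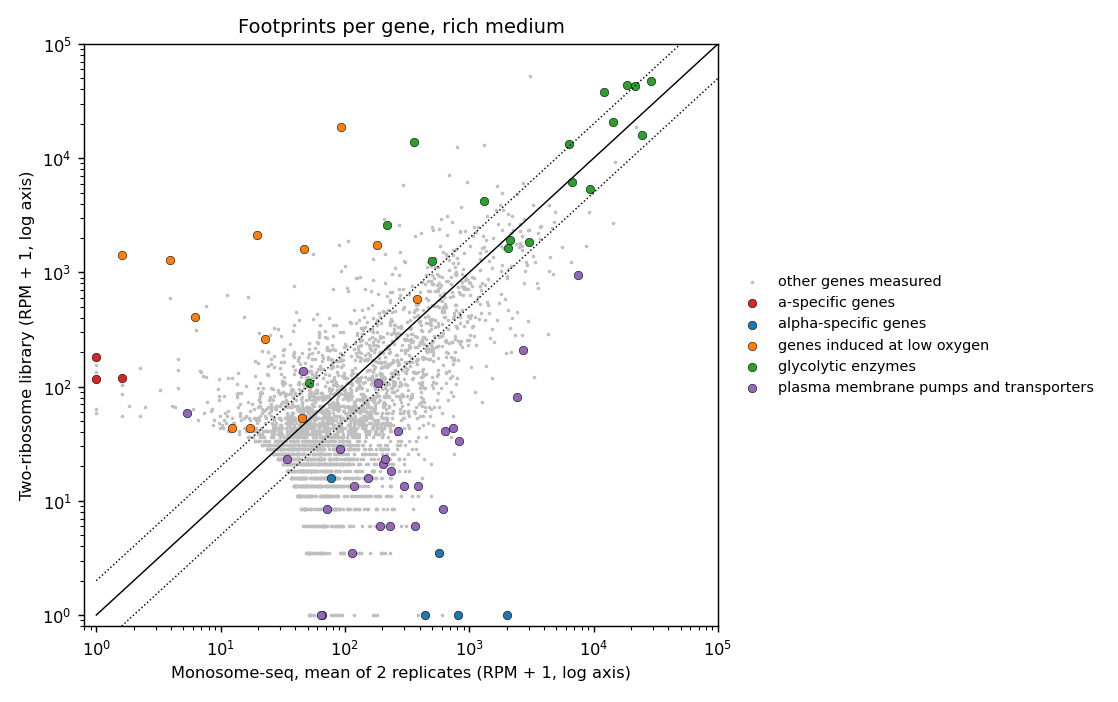
RPM + 1 of each gene measured in the two-ribosome library (vertical) and in monosome-seq (horizontal, mean of 2 replicates), both on log axes, with equal levels as the solid line and 2-fold as dotted lines. Genes induced at low oxygen lie above the line, most transporters lie below it, and the glycolytic enzymes lie near or above it at the top of both axes.

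The 10 genes highest in the two-ribosome library, past 2-fold with each monosome replicate alone and without their most counted A-site position, were TIR4, DAN1, TIR1, MFA2, LYS2, EGO4, PBI1, AGA2, TIR3 and USV1, with log2 ratios between 9.78 and 6.21. Of these 10, TIR1 alone had at least 25 RPM in monosome-seq. TIR4, DAN1, TIR1 and TIR3 belong to the DAN/TIR family, mannoproteins of the cell wall that yeast is known to make when oxygen is short or in the cold. TIR1 had 7467 footprints or 18589 RPM in the two-ribosome library (95% counting interval 18170 to 19016), against 84.9 and 98.9 RPM in the monosome replicates. TIR4 had 1429 RPM, against 1.25 RPM (a single footprint) and 0, a ratio of 2010 with a lower counting limit of 360. DAN1 had 1280 RPM, against 2.50 and 3.30 RPM. TIR3 had 2104 RPM, against 17.5 and 19.8 RPM, and TIR2 had 408.3 RPM, against 3.75 and 6.59 RPM. The mRNAs of these genes were also scarce in rich-medium mRNA-seq, with 37.2 and 30.3 RPM for TIR1 and 3.99 and 5.29 RPM for DAN1. Of these 5 genes, all but TIR1 were under 25 RPM in both monosome replicates and were measured only through the two-ribosome library. Of the other genes among these 10, USV1 is a transcription factor, EGO4 and PBI1 are little studied, and PBI1 had 53 footprints in the two-ribosome library, against 0 in both monosome replicates.

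Other genes known to be induced at low oxygen were listed after the first values were seen. Of 10 such genes beside the DAN and TIR genes, 7 were measured, and 5 of these (ANB1, COX5B, HEM13, CYC7 and AUS1) were above 2-fold and 0 below. COX5B, CYC7 and AUS1 were under 25 RPM in monosome-seq and measured only through the two-ribosome library. With the limit on monosome-seq alone 4 genes were left, of which 2 (ANB1 and HEM13) were above. HEM13, a step of heme synthesis, had 1730 RPM, against 188.5 and 169.7 RPM. OLE1 and UPC2 were measured and did not pass 2-fold, with log2 ratios of 0.62 and 0.25. Of 7 genes that yeast expresses when oxygen is present, all were measured, 0 were above and 6 below, with a median of −1.62. Over all genes measured 13.5% were above and 45.1% below.

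Pairs of near copies that oxygen switches in yeast stood on opposite sides. ANB1 and HYP2 both code for eIF5A, which helps ribosomes through difficult peptide bonds. Their coding sequences have the same 474 bases in length and share 90.9% of them. ANB1, the copy of low oxygen, had 1606 RPM in the two-ribosome library, against 41.2 and 51.1 RPM, a log2 ratio of 5.09. HYP2, the copy of aerobic cells, had 729.4 RPM, against 3441 and 3714 RPM, a log2 ratio of −2.29. A single position held 43.4% of the footprints of ANB1, and the ratio without it was 4.52. COX5B and COX5A, the alternative forms of a cytochrome c oxidase subunit, had log2 ratios of 3.53 and −1.54, and the cytochrome c genes CYC7 and CYC1 had 1.81 and −1.97.

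Several genes of carbohydrate stores and stress were high as well. Of 25 genes for trehalose, glycogen and general stress listed after the values were seen, 22 were measured, 19 were above 2-fold and 1 (TPS3) below. Of the 19, 11 were under 25 RPM in monosome-seq and measured only through the two-ribosome library. With the limit on monosome-seq alone, 8 of 11 genes were above and 1 below, with a median of 1.64, against 8.15% above over all genes. The heat shock protein HSP26 had 1036 RPM, against 81.1 and 102.2 RPM. TSL1, a subunit of trehalose synthase, had 689.6 RPM, against 103.6 and 107.1 RPM. RGI1 and SPI1, known for high expression in respiring or starved cells, had log2 ratios of 6.06 and 5.81. Hexose transporters, which bring glucose into the cell, stood on both sides. HXT7 had 23 footprints in the two-ribosome library, against 3 and 3, and HXT4 had 55, against 32 and 30. HXT1 had 1, against 92 and 68, HXT2 had 2, against 288 and 221, and HXT3 had 16, against 508 and 385. HXT7 has a near copy in HXT6, with 3.97% of its 28-nt stretches unique in the coding sequences, so that its counts are uncertain.

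Coding length and the log2 ratio went in opposite directions. The median ratio was 0.36 for the 205 genes under 400 nt, −0.20 for the 602 of 400 to under 800 nt and −0.52 for the 616 of 800 to under 1200 nt. It was −1.11 for the 892 genes of 1200 to under 2000 nt, −1.14 for the 518 of 2000 to under 3000 nt and −1.42 for the 363 of 3000 nt or more. The share of genes above 2-fold was 35.6% in the shortest class and 2.48% in the longest, and the share below was 23.4% and 65.0%. The shortest class was broad, with quartiles of −0.85 and 1.54 and a range of −8.79 to 7.51. With the limit of 25 RPM on monosome-seq alone, the median for genes under 400 nt was −0.27 and that for 3000 nt or more −1.49, with the other classes between. Genes above 2-fold had a median coding length of 804 nt, those below 1633.5 nt and the rest 1212 nt. Spearman's correlation across genes between the log2 ratio and coding length was −0.32 (3196 genes, which are not independent replicates).

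**Figure D3:**
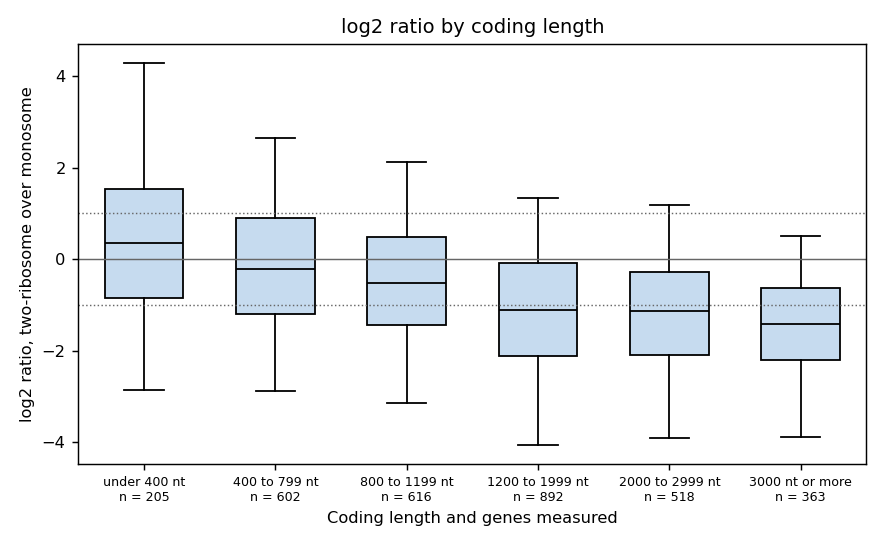
The log2 ratio of the two-ribosome library over monosome-seq for genes measured in 6 classes of coding length, with the median as the line, quartiles as the box and the 5th and 95th percentiles as whiskers. Medians run from 0.36 under 400 nt to −1.42 at 3000 nt or more, and the boxes of neighbouring classes overlap.

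The number of ribosomes per mRNA was approximated by the relative ribosome load, which is monosome RPM over mRNA RPM times coding length. The correlation of the log2 ratio with the load was −0.38 over the 3193 genes with mRNA reads in both replicates. Monosome counts enter both axes. The correlation was −0.36 and −0.37 when ratio and load were taken from different monosome replicates. Separate replicates remove shared counting error, but the monosome level of a gene still enters both axes. With monosome RPM by itself the correlation was −0.34, and with mRNA RPM by itself −0.28. With the monosome density alone, before the length is multiplied in, the correlation was −0.21, and −0.17 and −0.20 with separate replicates. Among the lowest 25% of genes by load, 29.8% were above 2-fold and 22.5% below, with a median of 0.14. Among the highest 25%, 4.64% were above and 62.9% below, with a median of −1.39. Within each of the 6 length classes the correlation with density lay between −0.14 and −0.25. The load was measured in the cells of monosome-seq and mRNA-seq, not in those of the two-ribosome library.

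The longest coding sequences lay mostly below the median of all genes. Of 33 giant enzymes and scaffolds, all measured, 0 were above 2-fold and 23 (69.7%) below, with a median of −1.36, near the 65.0% below and −1.42 of all genes of 3000 nt or more. Above the −0.81 of all genes lay 8 of them. The glutamate synthase GLT1 (6438 nt) had 331.1 RPM, against 1026 and 1091 RPM, and GCN1 (8019 nt), a ribosome-bound activator of the starvation response, had 256.4 RPM, against 885.1 and 1030 RPM. The exceptions within 2-fold included the subunits of fatty acid synthase, FAS1 and FAS2, with log2 ratios of −0.37 and −0.77, and SEC31, a coat protein of transport vesicles, at −0.10, the highest of the list. The lowest was YCF1, a vacuolar transporter, with 3 footprints, against 288 and 211. Aminoacyl-tRNA synthetases, with a median coding length of 1914 nt, had 0 of 20 above and 12 (60%) below. Their median was −1.50, from TYS1 at −0.31 to SES1 at −2.44. Over all genes 13.5% were above and 45.1% below. Of genes of 1200 to under 2000 nt 8.41% were above and 52.1% below, with a median of −1.11.

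Ribosomal proteins, which are short and abundant, lay above the median of all genes. Of 82 genes listed for the cytosolic large subunit 15 were above 2-fold and 17 below, with a median of 0.01. They include RPP1, a subunit of RNase P rather than of the ribosome, at 0.38. Of 56 small subunit genes 13 were above and 12 below, with a median of −0.15. These shares, 18.3% and 20.7% for the large and 23.2% and 21.4% for the small subunit, are to be read against 13.5% above and 45.1% below over all genes. The median coding lengths were 459 and 432 nt. All genes of 400 to under 800 nt were near these values, with 23.4% above, 28.9% below and a median of −0.20. With each occupied position of the two-ribosome library counted once and monosome counts unchanged, which lowers well counted genes, the medians were −0.38 for the large and −0.41 for the small subunit. RPL4B was highest of the large subunit, with 891.2 RPM, against 119.9 and 130.2 RPM. RPS14B and RPS8A were the ends of the small subunit, with log2 ratios of 2.86 and −3.88. All 3 have a second copy, and the share of unique 28-nt stretches was 17.1% for RPL4B, 76.9% for RPS14B and 20.7% for RPS8A, so that the division of reads between copies is uncertain. Genes listed as mitochondrial ribosomal proteins were spread likewise, with 12 of 47 above, 13 below and a median of 0.14, from YML6 at 2.71 to MRPL22 at −3.13. Of the 12, 5 were measured only through the two-ribosome library, and with the limit on monosome-seq alone 7 of 53 were above and 21 below, with a median of −0.45.

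RPL41A and RPL41B, for the smallest ribosomal protein, were the lowest of the ribosomal genes. RPL41B had 0 footprints in the two-ribosome library, against 350 and 201, at least 51.4-fold lower, and RPL41A had 2, against 269 and 170, 62.6-fold lower with a counting interval of 17.2 to 519. They are shown because their coding sequences, both on the minus strand at chrIV:130407-130484 for RPL41A and chrIV:221724-221801 for RPL41B, are of 26 codons and differ at 1 base, in capitals.
RPL41A: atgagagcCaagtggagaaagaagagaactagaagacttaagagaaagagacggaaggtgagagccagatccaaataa
RPL41B: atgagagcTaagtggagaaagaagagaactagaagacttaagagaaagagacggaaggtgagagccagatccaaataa
Reads with several matches were discarded by the study, and 17.6% of the 28-nt stretches of each copy are unique in the coding sequences. Footprints of 28 to 29 nt and of 20 to 30 nt meet this limit differently, and its part in the difference was not tested.

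Factors of translation itself lay near all genes as groups, while some of them were far below. Of 26 initiation factors 4 (15.4%) were above 2-fold and 14 (53.8%) below, with a median of −1.04, against 13.5% above and 45.1% below over all genes. FUN12, which is eIF5B and joins the ribosomal subunits, had 3 footprints, against 494 and 336, a ratio 78.9 times lower with a counting interval of 26.9 to 384. SUI1, which is eIF1 and guards the choice of start codon, is short (327 nt) and yet had 119.5 RPM, against 3392 and 3295 RPM. The helicase eIF4A, coded by TIF1 and TIF2, was above, with TIF1 at 2.35, although 9.13% of the stretches of TIF1 are unique. Of 10 elongation factors 1 (ANB1) was above and 5 below, with a median of −1.16. The genes of elongation factor eEF1A, TEF1 and TEF2, had log2 ratios of −4.20 and −2.03, but 4.15% and 4.15% of their stretches are unique. Among the genes that the study names for footprints, RPS14A and TEF4 had log2 ratios of 1.03 and 0.64, CYC8 −0.18, RPS31 −1.73 and RPL15A −2.12.

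Ribosome biogenesis factors, which build new ribosomes in the nucleolus, were low as a group. All 87 were measured, of which 2 were above 2-fold and 75 below, with a median of −2.48, against 45.1% below over all genes. MAK16 had 0 footprints, against 66 and 58, at least 11.9-fold lower, and the methyltransferase NOP1 had 117.0 RPM, against 720.4 and 665.6 RPM. The 2 above were NHP2 and SNU13, small proteins of guide RNA particles, at 1.32 and 1.24. Proteasome subunits had 1 of 33 above (RPN12 at 1.31) and 23 (69.7%) below, with a median of −1.21 and RPT4 lowest at −5.48. Cytosolic chaperones lay nearer to all genes, with 5 of 31 (16.1%) above, 16 (51.6%) below and a median of −1.13. The 5 above were HSP26, SSA4 and HSP104, which stress induces, and FPR1 and EGD1. Other heat shock genes of the list were not above 2-fold, with HSP42 at 0.17 and HSP82 at −2.48. The chaperonin subunit CCT6 was lowest at −3.74.

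Plasma membrane pumps and transporters were low, with 2 of 27 measured above 2-fold and 23 (85.2%) below, against 13.5% and 45.1% over all genes. Their median was −3.69, or −3.27 with the 2 genes at 0 set to their bounds. PMA1, the proton pump of the plasma membrane, had 938.5 RPM, against 7504 and 7538 RPM. The phosphate transporter PHO84 had 79.7 RPM, against 2487 and 2363 RPM, and the drug pump PDR5 had 209.1 RPM, against 2753 and 2681 RPM. The copper transporter CTR1 had 3 footprints, against 521 and 350. The 2 above were HXT7 and HXT4, of which HXT7 was measured only through the two-ribosome library. PMR1, a pump of the Golgi rather than of the plasma membrane, was among those below. Genes of the vacuolar proton pump lay nearer to all genes, with 1 of 15 above (VMA7, 1875 RPM, against 89.9 and 118.6 RPM), 4 below and a median of −0.58.

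**Figure D4:**
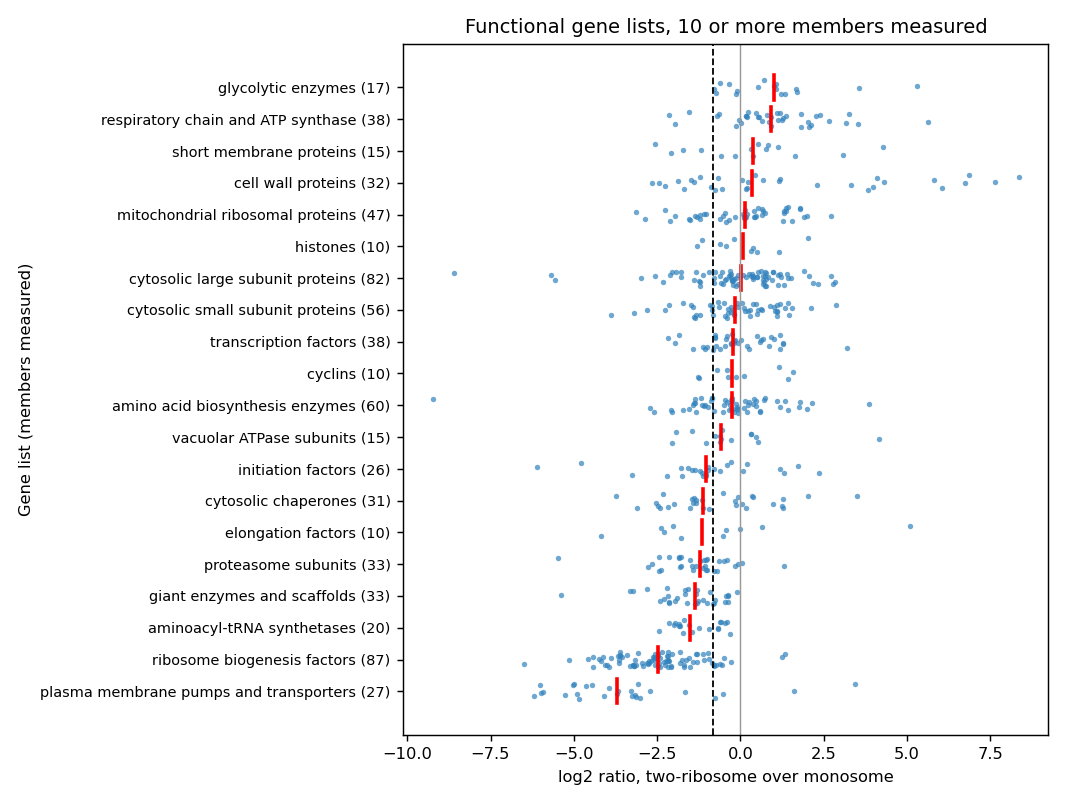
The log2 ratio of each measured member (blue points, vertical scatter without meaning) of the gene lists with 10 or more members measured, leaving out the lists made after the values were seen, with the list's median in red, ordered by that median, and the median of all genes measured (−0.81) as the dashed line. Among those drawn, glycolytic enzymes are at the top with a median of 1.00, and plasma membrane pumps and transporters at the bottom with −3.69 (−3.27 with the 2 genes at 0 set to their bounds).

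Cell wall proteins were high at 1 end of the list and low at the other. Of 32 measured, 14 (43.8%) were above 2-fold and 8 (25.0%) below, against 13.5% and 45.1% over all genes. The 14 include genes already given above, which are DAN1, TIR1, TIR2 and TIR3, the a-specific AGA2 and the stress gene SPI1. With the limit on monosome-seq alone 9 of 27 (33.3%) were above and 8 (29.6%) below, against 8.15% and 52.2%. The list, with these genes in it, held 12.3% of the two-ribosome library, against 1.84% and 1.97% of the monosome replicates. CCW12, a mannoprotein, was the most counted gene of the two-ribosome library with 52113 RPM, against 2900 and 3198 RPM. CWP2 had 12632 RPM, against 756.6 and 838.6 RPM, and SED1, the main wall protein of stationary cells, had 12993 RPM, against 1307 and 1323 RPM. Those below were largely enzymes that remodel the wall, with UTR2 lowest at −2.64. A single A-site position of CCW12 held 4517 footprints, which is 21.6% of the gene and 1.12% of the library, and without it the log2 ratio was 3.99. The sequence around it is shown because it carries the most footprints of the gene, with the A-site codon (codon 104) in capitals and 15 nt before it, at chrXII:369775-369804 on the minus strand.
CCW12: acctctgctgctccaACTcactctgtcacc

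Glycolytic enzymes, the most abundant enzymes of growing yeast, were higher than all genes. Of 17, all measured, 8 (47.1%) were above 2-fold and 0 below, against 13.5% and 45.1% over all genes, with a median of 1.00. They held 26.1% of the two-ribosome library, against 15.2% and 15.1% of the monosome replicates. With each occupied position of the two-ribosome library counted once and monosome counts unchanged, the median was −1.68. With the library summary of the study as totals, which lowered all genes, it was −0.99. Of the 3 genes for glyceraldehyde-3-phosphate dehydrogenase, TDH1 had 13969 RPM, against 343.3 and 370.7 RPM, TDH2 had 13321 RPM, against 6870 and 5790 RPM, and TDH3 had 47440 RPM, against 29377 and 28248 RPM. TDH1 is known as the form of slow growth and stress. The hexokinase genes also parted, HXK1 with 2587 RPM, against 211.0 and 224.1 RPM, and HXK2, the form of growth on glucose, with 1827 RPM, against 3140 and 2916 RPM. Subunits of the respiratory chain and ATP synthase, mostly short, had 18 of 38 above and 3 below (QCR6, CYC1 and COX5A), with a median of 0.91. Of the 18, 8 were measured only through the two-ribosome library, and with the limit on monosome-seq alone 10 of 30 were above and 3 below, with a median of 0.61. COX7 was highest with 313.7 RPM, against 7.49 and 3.30 RPM.

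Transcripts known for blocked or regulated initiation were few. Of 15 listed genes seen in any library, 7 were measured, 2 above 2-fold and 1 below, with a median of −0.35. Over all genes measured 13.5% were above and 45.1% below. GCN4, the activator of amino acid synthesis whose upstream open reading frames hold back its translation in rich medium, had 306.2 RPM in the two-ribosome library (254.5 to 365.4), against 41.2 and 33.0 RPM. Its mRNA stood at 1288 and 1195 RPM, so that it carried few monosome footprints for its mRNA. HAP4, an activator of respiratory genes, had 206.6 RPM, against 27.5 and 34.6 RPM. SCH9, a nutrient-sensing kinase, was below, at −1.58.

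The remaining lists had medians above the −0.81 of all genes. Their counts are to be read against 13.5% above and 45.1% below over all genes. Amino acid biosynthesis enzymes had 9 of 60 above and 16 below, with a median of −0.27, from SER3 at 3.86 to MET17 with no footprint. SER3 had 8.74 and 29.7 RPM in the monosome replicates and was measured only through the two-ribosome library. With the limit on monosome-seq alone 8 of 61 were above and 18 below, against 8.15% and 52.2% over all genes. Transcription factors had 6 of 38 above and 7 below, with a median of −0.21, and MSN4, an activator of stress genes, was highest at 3.18 and CBF1 lowest at −2.17. With the limit on monosome-seq alone 5 of 41 transcription factors were above and 12 below, with a median of −0.41. Cyclins had 3 of 10 above and 2 below and a median of −0.25, with CLG1 at 1.57 and CLB2 at −1.27. Histones had 2 of 10 above and 2 below and a median of 0.06, with HTB1 at 2.03 and HTZ1 at −1.29. Short membrane proteins had 4 of 15 above and 4 below, with a median of 0.36, from SNA3 at 4.29 to TOM5 at −2.56. With the limit on monosome-seq alone 3 of 14 short membrane proteins were above and 4 below, with a median of 0.34.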

How the data were processed

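The deposited tables hold counts. For the two-ribosome library the authors gave footprints of 28 to 29 nt per A-site position. Monosome-seq (20 to 30 nt) and mRNA-seq (28 to 29 nt) came as raw counts of each gene in each replicate. Per the labels and the methods, reads were trimmed with cutadapt 1.16, rRNA reads were removed with Bowtie 1.2.2, and the rest were aligned with TopHat2 2.1.1 to coding sequences of R64, discarding multiple matches. By the methods, identical reads with the same 3-nt UMI, a random tag, were collapsed. The two-ribosome table holds up to 4517 footprints at 1 position, where a tag has 64 sequences for each form of a footprint, so that it is unsettled whether its reads were collapsed. The totals are those of the tables. The study's library summary gives more uniquely mapped reads than this for the two-ribosome library and fewer for monosome-seq, so that the totals do not count the same reads.

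Counts were summed per gene and divided by the table's total (RPM). The log2 ratio used a pseudocount of 1 RPM, and genes with a mean of at least 25 RPM over the assays were measured and called past 2-fold. Single counts carry exact Poisson intervals and ratios of counts exact Clopper-Pearson intervals at 95%. Genes at 0 were given as bounds at 3 counts, per library for the two-ribosome library and over both replicates for monosome-seq. Of 5343 genes, 5342 matched the RefSeq annotation of R64, the source of names, coding lengths and sequences. The calculation was tested on simulated counts. Tools were Python 3.11.15, pandas 2.3.3, scipy 1.17.1 and edgeR 4.0.16 in R 4.3.3 (TMM factors only).

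The genes and the 23 lists were chosen with earlier results of these data known, and 10 further lists (mating type, auxotrophy, oxygen, stress, hexose, iron and copper, phosphate, ER and Golgi) after the values were seen. The text names the 10 genes with the largest and the 10 with the smallest log2 ratio past 2-fold with each monosome replicate alone (those above also without their most counted position), the ends of each list and the genes that the study names for footprints. Other genes were chosen after their values were seen. The methods call the monosome replicates biological, and their spread is the only replicate spread given.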

Additional observations from a re-analysis of the deposited data

How the results depend on the processing

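There was 1 two-ribosome library, so that no value has a replicate of it, and no paired analysis was possible because the result comes from no test. Without either monosome replicate in turn, 428 to 433 genes (13.5%) were above 2-fold and 1440 to 1481 (45.4% to 46.3%) below, and Spearman's correlation was −0.33 to −0.32 with coding length and −0.38 to −0.38 with load. Scaling decided the split. It was 826 above (25.8% of genes measured) and 823 below (25.8%) with the median set to 0, 845 (25.8%) and 847 (25.9%) with TMM factors, which moved ratios by 0.72, and 66 (1.85%) and 3178 (88.9%) with the uniquely mapped reads of the study's library summary as totals, which are fewer than the monosome tables hold and more than the two-ribosome table holds and so do not count the same reads. With each occupied position counted once, 47.8% were above and 10.2% below. This setting changes the two-ribosome library only, because monosome-seq came as counts per gene. It therefore sets numbers of positions against numbers of reads and is no like-for-like removal of duplicates. With the limit of 25 RPM on monosome-seq alone, chosen after seeing the data, 8.15% were above and 52.2% below. The correlations were then −0.26 with length and −0.27 with load, and the list of deleted genes was at −2.14. The counts were 243 (7.60%) and 955 (29.9%) past 3-fold, 209 and 505 at 100 RPM, and 703 and 2422 without a filter. The correlation with length stayed negative, at −0.33 with TMM factors, −0.28 with library summary totals, −0.31 without the 10 most counted genes in the totals, −0.29 without the most counted positions, −0.14 with positions counted once, −0.43 at 100 RPM and −0.25 without a filter. The correlation with load was −0.41, −0.32, −0.38, −0.34, −0.34, −0.45 and −0.32 in the same order, and −0.39 with a pseudocount of 5 RPM. Without mating-type, auxotrophy and low-oxygen genes, an alternative chosen after seeing the data, 416 genes were above and 1434 below, with correlations of −0.32 and −0.38. This left 3173 of 3196 genes, so that these values could hardly move. Whether strain or culture differences act on the genes left was not tested.

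With each occupied position of the two-ribosome library counted once, medians turned to −1.68 for glycolytic enzymes, −0.38 for the large subunit and 0.48 for initiation factors. They turned to 0.29 for giant enzymes, 0.19 for the proteasome, and 0.82, 0.78 and 0.61 for genes of 1200 to under 2000, 2000 to under 3000 and 3000 nt or more. Log2 ratios turned to 0.56 for HTZ1, 0.59 for SCH9, 0.59 for CLB2, 0.016 for CBF1 and −0.31 for RPS14A. With library summary totals, NHP2 was at −0.64, RPN12 at −0.67, CLG1 at −0.40, RPS14A at −0.96 and HIS3 at −0.91, as was the list of deleted genes (−0.91). The causes were not tested. Of 65 genes named by rule, 56 kept their sign with positions counted once, 59 with library summary totals, 61 with the median set to 0 and 65 with either pseudocount. Of 29 list and class medians, 14 kept their sign with positions counted once, 20 with library summary totals and 20 with the median set to 0.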

Other observations

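The 10 genes lowest in the two-ribosome library, past 2-fold with each monosome replicate alone, were MF(ALPHA)1, SAG1, MET17, MF(ALPHA)2, RPL41B, TVP18, FRE1, SIT1, LRO1 and STE3. TVP18, a Golgi membrane protein, had 0 footprints, against 143 and 109 in the monosome replicates, at least 24.0-fold lower. LRO1, an enzyme of storage lipid synthesis, had 0, against 144 and 94, at least 22.4-fold lower.

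Genes of metal uptake were low, where 13.5% were above and 45.1% below over all genes. Of 14 measured of a list for iron and copper uptake, 2 were above 2-fold and 12 below, with a median log2 ratio of −4.79, or −4.41 with the 3 genes at 0 set to their bounds. The reductase FRE1 had 1 footprint, against 509 and 352, 246 times lower with a lower counting limit of 44. The siderophore transporter SIT1 had 0, against 149 and 92, at least 22.6-fold lower. FIT2 and FIT3, mannoproteins of the cell wall that retain siderophores, were the 2 above, at 1.57 and 1.67. Phosphate genes were low as well, with 0 of 9 measured above, 9 below and a median of −4.12. They included the acid phosphatase PHO5 with 4 footprints, against 282 and 207, and the polyphosphate synthase subunit VTC4 with 72.2 RPM, against 1241 and 1298 RPM.

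Genes of glycosylation and folding in the ER and Golgi were below 2-fold in 25 of 30 measured (83.3%) and above in 1, DPM1 at 1.19. Over all genes 45.1% were below and 13.5% above. The median was −3.23, or −3.18 with the 2 genes at 0 set to their bounds. The glucosidase CWH41 had 1 footprint, against 183 and 138, and the chaperone KAR2 had 117.0 RPM, against 1562 and 1494 RPM. The hexose transporters measured had 2 above and 3 below of 5. These lists were made after the values were seen, and the parts of strain, culture and gradient in them were not tested.

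The table of the two-ribosome library held few footprints outside coding sequences. The study aligned reads to coding sequences, so that the table cannot show how many footprints lay elsewhere. Before the start codon lay 199 footprints (0.0495%) at 141 positions of 102 genes, of which MTC7 held 36 at 13 positions, all the footprints it had. Past the stop codon of the R64 annotation lay 1058 (0.263%).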
